A study of Homo sapiens with 20 samples.

Results

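VEGFA, ADM, ANGPTL4, PDGFB, TGFA, EDN1 and LOX are genes of secreted factors that act on blood vessels, neighbouring cells or the matrix around them, and each is known as a target of the hypoxia-inducible factors (HIFs). Peaks of BMAL1 and of HIF2α were taken for these 7 genes wherever a called peak overlapped the gene body in GRCh37 or the 10 kb to either side of it. This gave 25 of the 12171 peaks in 4 lists, merged where they overlapped into 13 sites. EDN1 and LOX had no peak in any list, so the 25 peaks belong to 5 of the 7 genes.

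The peaks come from A498, an established human line of clear cell renal cell carcinoma (ccRCC), profiled by CUT&RUN. The method cuts and releases DNA beside an antibody-bound protein, and the released fragments are sequenced. Cells carried lentiviral PLKO.1 constructs with the control hairpin shCNT or the BMAL1 hairpin shBMAL1, were selected in puromycin, are labelled WT in genotype, and grew in culture with no time point or hypoxic treatment in the labels. Of 20 libraries, 16 were made with an antibody to BMAL1 or HIF2α (4 per antibody and hairpin) and 4 with IgG. The BMAL1 and HIF2α groups each gave 1 list of peaks and the IgG groups gave 0 lists. Without replicate lists, no difference between lists could be set against replicate spread, and no test was made.

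HIF2α binds DNA as a dimer with a class I bHLH-PAS partner, classically ARNT, at the hypoxia response element, whose core is ACGTG or GCGTG. In normal cells the VHL protein marks HIF2α for destruction when oxygen is present. VHL is lost in most ccRCC, HIF2α then accumulates, and the angiogenic factors it drives give these tumours their dense vessels. BMAL1 is the clock protein that binds the E-box CACGTG with CLOCK, and the study asked whether it also works as a partner of HIF2α.

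The elements below are the 5 core bases in capitals with 10 reference bases to either side, each read 5′ to 3′ on its own strand of GRCh37 and named by gene and distance of the core from the annotated gene start. They are examples of the elements inside the HIF2α peaks described below, each within 100 bp of a HIF2α summit in at least 1 list except VEGFA −947 bp, which lies farther out and is shown for its textbook role. The EDN1 and LOX elements are shown because they lie near a start where no peak was called.
VEGFA −284 bp, chr6:43737625-43737649, minus strand: aagtgaggttACGTGcggacagggc
VEGFA −947 bp, chr6:43736962-43736986, plus strand: cacagtgcatACGTGggctccaaca
ADM 2949 bp, chr11:10329557-10329581, plus strand: aagttctcctACGTGggagtcagca
ADM 2925 bp, chr11:10329533-10329557, plus strand: gccaagcagtACGTGcggtttaata
ANGPTL4 −1144 bp, chr19:8427017-8427041, minus strand: ccaagggctgACGTGcaggctgcca
ANGPTL4 4368 bp, chr19:8432529-8432553, plus strand: gagcctccagACGTGctcaacgcca
PDGFB −7344 bp, chr22:39648319-39648343, plus strand: tgggcatagtACGTGctccccgggc
PDGFB −7382 bp, chr22:39648357-39648381, minus strand: ttcagcagggACGTGccccatggcc
TGFA −57 bp, chr2:70781370-70781394, plus strand: gcggactccaGCGTGcggggtcggc
TGFA −42631 bp, chr2:70823944-70823968, minus strand: cagagtggagACGTGctggaattca
EDN1 −121 bp, chr6:12290461-12290485, minus strand: ccaacaggcaACGTGcagccggaga
LOX −29 bp, chr5:121414125-121414149, minus strand: tccctgtgcaACGTGtctgggggga

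Each peak carries a fold and a −log10 p, both from the authors' peak caller. The fold sets the fragments stacked at the summit against the local background, with 1 added to each. Ranks and percentiles below are by −log10 p within 1 list, and the percentile is the share of that list with a lower value. The pileup, the number of fragments at the summit, was recovered from those values. The genome-wide background was not measured directly. It was taken as the lowest local background recovered at any peak of a list, and was read as that list's depth. It fell from 0.209 fragments per position (shCNT) to 0.109 (shBMAL1) for HIF2α and from 0.168 to 0.0839 for BMAL1. At that background the smallest pileup that could be called was 4 in the shCNT lists and 3 in the shBMAL1 lists. The shBMAL1 lists were the longer ones for BMAL1 (4261 against 2350 peaks) and for HIF2α (3199 against 2361). The highest BMAL1 pileup, a single peak of each list, was 76 under shBMAL1 and 835 in shCNT, while the median pileups were 5 and 6. Neither list length nor highest pileup was read as a measure of BMAL1, whose RNA and protein were not analysed here.

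HIF2α was called at more of these genes than BMAL1. In shCNT cells 4 of the 7 had a HIF2α peak (VEGFA, ADM, ANGPTL4 and TGFA), where 11.4% of 20098 protein-coding genes did under the same rule. Under shBMAL1, PDGFB joined them and 5 of the 7 had a peak, against 13.6% of genes. BMAL1 was called at 2 of the 7, ADM and TGFA, in either hairpin, where 12.9% of genes had a shCNT BMAL1 peak and 18.6% a shBMAL1 BMAL1 peak. Among the 15393 genes no shorter than the shortest of the 7 and no longer than the longest, the shares were 11.3% and 12.8% for HIF2α and 13.2% and 18.0% for BMAL1, shCNT first. The genes were picked as known HIF targets, so their HIF2α count is a description of the choice and not a test of it.

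**Figure D1:**
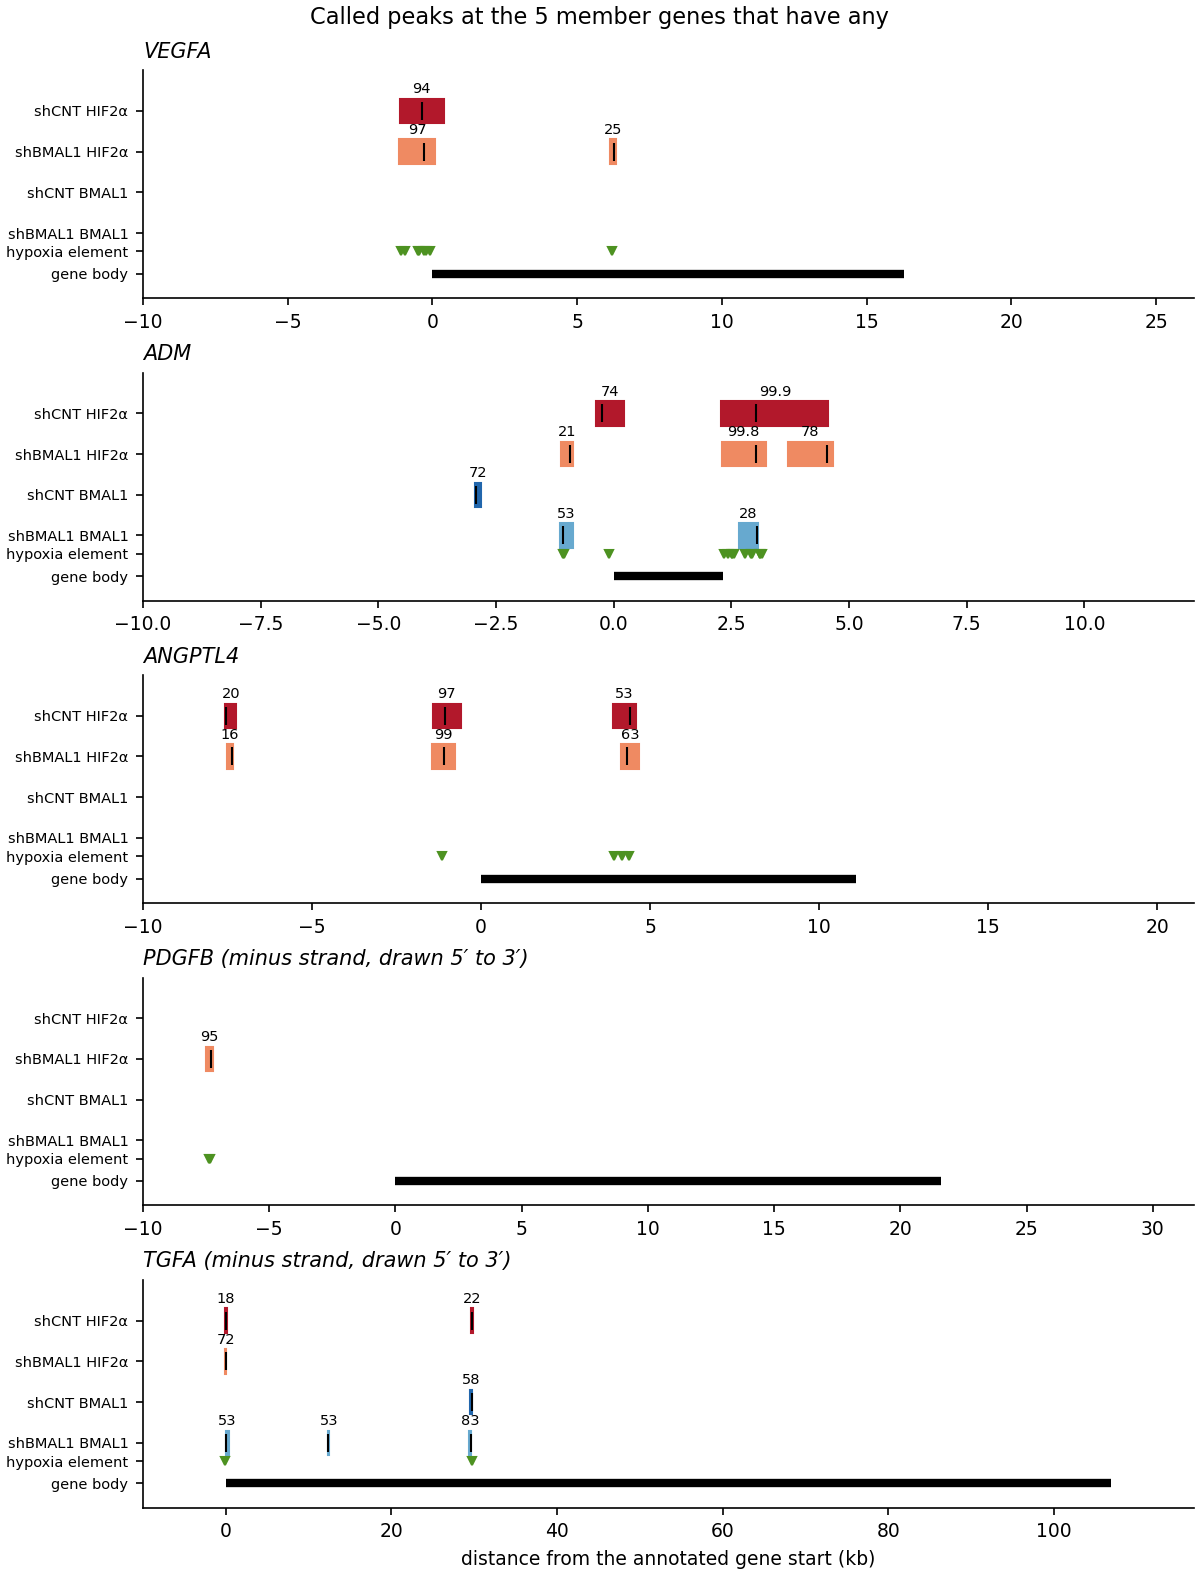
Peaks at the 5 genes that had any, drawn 5′ to 3′ with the distance from the annotated gene start in kb on the horizontal axis, which covers the gene body and 10 kb to either side. Each row is 1 list, bars span the called peaks, black ticks mark summits, numbers above the bars give the percentile in the list, and green triangles mark ACGTG or GCGTG inside a peak. The HIF2α peaks of highest percentile stood at the start of VEGFA, downstream of ADM and upstream of ANGPTL4 and PDGFB, and BMAL1 peaks appear at ADM and TGFA alone.

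ADM encodes adrenomedullin, a vasodilating peptide that acts on endothelium, and carried the strongest peak of the set. It lay downstream of the short gene (chr11:10326620-10328944), from its last bases into the DNA beyond. In shCNT cells the HIF2α peak at chr11:10328908-10331184 ranked 3 of 2361, with a fold of 46.4, a −log10 p of 113.8 and a pileup of 58. At 2277 bp it was also the second widest peak of that list (width rank 2). Under shBMAL1 the same stretch was called as 2 peaks, a strong part at chr11:10328919-10329851 of rank 5 in 3199 and pileup 42, and a weaker part at chr11:10330325-10331272 of percentile 77.8 and pileup 10. The weaker part held no hypoxia element, and its summit lay in an intron of AMPD3, at a position the shCNT peak also covered. The strong summits of the hairpins lay 11 bp apart in intergenic DNA, at 3032 and 3021 bp from the gene start.

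The strong ADM site was dense in hypoxia elements. The shCNT HIF2α peak held 11 copies of ACGTG or GCGTG, and 72 bp separated either summit from the nearest copy. In shCNT that copy was a GCGTG on the far side, and under shBMAL1 it was the ADM 2949 bp element printed above. The copies at 2511 and 2512 bp are the opposite strands of a single E-box CACGTG, 521 and 520 bp from the shCNT summit. A BMAL1 peak was called on the same stretch only in the shBMAL1 list, at chr11:10329274-10329680, with a summit at 3043 bp. It was weak, with a percentile of 28.4 and a pileup of 4.

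The other 3 ADM sites lay upstream or at the start and each was called by few lists. At the start, a shCNT HIF2α peak at chr11:10326237-10326843 had its summit at −246 bp, in an exon of a SBF2 transcript, with percentile 74.1 and pileup 10. No shBMAL1 peak overlapped it, although a pileup of 10 scaled to the lower background of that list gives 5.24, above the 3 that could be called. Nearby, at −924 bp, the reverse held. A weak shBMAL1 HIF2α peak (percentile 21.3, pileup 4) coincided with a shBMAL1 BMAL1 peak of percentile 52.6, in an intron of SBF2. The last site, a shCNT BMAL1 peak at −2919 bp with pileup 7 and percentile 71.7, had no HIF2α peak. All ADM peaks also lay within 10 kb of SBF2 and AMPD3, so position alone does not assign them to ADM.

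VEGFA encodes the main growth factor of endothelial cells. Its HIF2α peak covered the promoter in both hairpins, at chr6:43736787-43738307 in shCNT and chr6:43736772-43738003 under shBMAL1. The fold was 18.1 and 17.1, the pileup 21 and 18, and the rank 134 of 2361 (percentile 94.2) and 89 of 3199 (percentile 97.1). The summits stood at −369 and −298 bp. The shCNT peak, 1521 bp wide, was number 17 of its list by width. BMAL1 was not called within 10 kb of VEGFA in either list, and the nearest BMAL1 peaks were 140 kb away, in MAD2L1BP.

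Inside either promoter peak of VEGFA lay 7 hypoxia elements. The VEGFA −947 bp sequence printed above carries the stretch known from textbooks as the VEGFA hypoxia response element, and it lay inside both peaks but 578 bp from the shCNT summit and 649 bp from the shBMAL1 summit. Closest to the shBMAL1 summit was the VEGFA −284 bp element, 14 bp away, which stood 85 bp from the shCNT summit. A second VEGFA site was called only in shBMAL1 HIF2α, in an exon at 6284 bp (chr6:43744070-43744251), with pileup 4 and percentile 25.0. It held 1 GCGTG, 96 bp from the summit.

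ANGPTL4, a secreted inhibitor of lipoprotein lipase that also acts on vessels, had the most regular pattern. Its 3 sites were each called with HIF2α in both hairpins and at none was BMAL1 called. The strongest lay upstream of the gene, at chr19:8426747-8427566 in shCNT and chr19:8426725-8427415 under shBMAL1. It ranked 74 and 43, with folds of 21.8 and 21.6 and pileups of 27 and 23, and summits at −1071 and −1085 bp. It held a single element, ANGPTL4 −1144 bp, 73 and 59 bp from the summits. The second site lay in an intron, with summits at 4392 and 4320 bp, percentiles of 52.9 and 63.1 and pileups of 7 and 6, and the ANGPTL4 4368 bp element stood between those summits, 24 and 48 bp away. The third, at −7548 and −7352 bp, was weak in both lists (percentiles 20.4 and 15.7, pileup 5 in each) and was the single HIF2α site of the set without any ACGTG or GCGTG in its peaks.

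PDGFB encodes the B chain of platelet-derived growth factor, which recruits pericytes to new vessels. Its only peak was a shBMAL1 HIF2α peak at chr22:39648195-39648478, in intergenic DNA with the summit at −7292 bp. The fold was 14.4, the −log10 p 28.7 and the pileup 15, at rank 152 of 3199 (percentile 94.9). Of the 1880 shBMAL1 HIF2α peaks with no shCNT HIF2α overlap it was number 2 by −log10 p. A pileup of 15 scaled to the deeper shCNT list gives 28.6 fragments, where 4 sufficed for a call. The peak held the PDGFB −7344 bp and PDGFB −7382 bp elements, 52 and 90 bp from the summit.

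The absence of this PDGFB peak from the shCNT list may be set beside the other strong peaks. Of the 313 shBMAL1 HIF2α peaks at or above percentile 90, 97.1% were overlapped by a shCNT HIF2α peak, and PDGFB was among the 9 that were not. The numbering of the shCNT list runs without a gap from the peak 546 kb before the site to the peak 67.7 kb after it, so no numbered shCNT peak was removed between them. Whether the difference comes from the hairpin or from a single library was not tested.

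TGFA encodes transforming growth factor α, a ligand of the EGF receptor and a growth factor for renal carcinoma cells. Peaks within 10 kb of it ranged from percentile 18.1 to 82.6, and BMAL1 was called at each of its 3 sites in at least 1 list. At its start, HIF2α was called in both hairpins, at chr2:70781210-70781405 in shCNT and chr2:70781266-70781405 under shBMAL1, with pileup 7 in each. The percentiles were 18.1 and 71.7, and the local background at the summit was 0.582 in shCNT and 0.143 under shBMAL1. In the shBMAL1 list a BMAL1 peak at chr2:70780945-70781275 (percentile 52.6, pileup 5) overlapped only the edge of the HIF2α peak. The TGFA −57 bp element lay 116 and 47 bp from the HIF2α summits.

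In an intron of TGFA, at about 29.7 kb, lay the single site of the set with BMAL1 in both hairpins. BMAL1 pileups there were 6 in shCNT (percentile 58.1) and 7 under shBMAL1 (percentile 82.6), and a shCNT HIF2α peak of percentile 21.6 and pileup 5 overlapped the shCNT BMAL1 peak. No shBMAL1 HIF2α peak was called, and 5 fragments scaled to the background of that list give 2.62, under the 3 needed for a call. The far ANGPTL4 peak, also of pileup 5 in shCNT, was called under shBMAL1. Whether HIF2α differed here between the hairpins was not tested. A further intronic peak, at 12389 bp, was in the shBMAL1 BMAL1 list alone, with pileup 5 and percentile 52.6.

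The strongest HIF2α peak near TGFA fell outside the 10 kb. It lay 42.7 kb upstream of the start, in intergenic DNA at chr2:70823445-70824421 in shCNT and chr2:70823341-70824508 under shBMAL1, and TGFA was the nearest protein-coding start. It ranked 4 and 6 in the HIF2α lists, with folds of 46.3 and 37.0 and pileups of 55 and 40, next to the ADM peak in both. BMAL1 was also called there, with rank 103 (percentile 95.3, pileup 11) in shCNT and percentile 82.6 (pileup 7) under shBMAL1. The TGFA −42631 bp element was the nearest of its 4 elements, 49 bp from the shCNT HIF2α summit. A peak at that distance is not assigned to TGFA by these data.

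**Figure D2:**
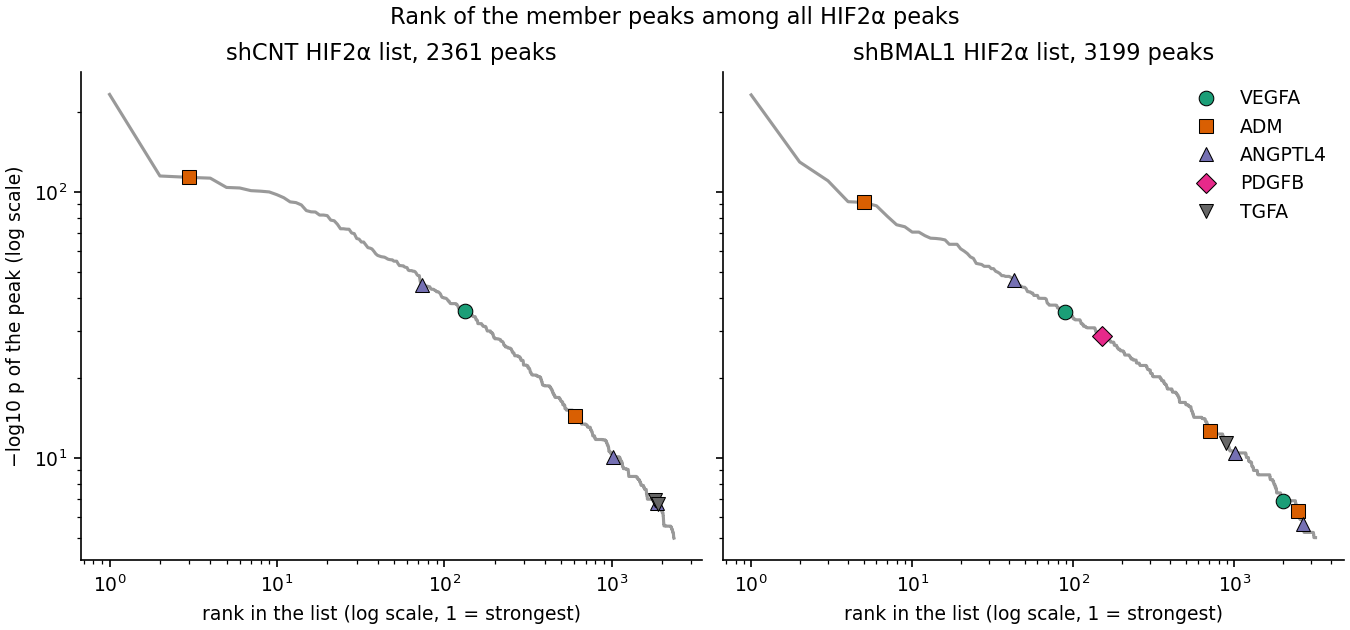
Rank in the list (horizontal, log scale, 1 is strongest) against −log10 p (vertical, log scale) for all 2361 shCNT HIF2α peaks on the left and all 3199 shBMAL1 HIF2α peaks on the right, as grey lines, with the peaks of the 5 genes as symbols. ADM stood at ranks 3 and 5, ANGPTL4 at 74 and 43, VEGFA at 134 and 89, and PDGFB at 152 in the right panel only, while the TGFA peaks lay at rank 895 or beyond.

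EDN1 and LOX lacked peaks over wide regions. EDN1 encodes the vasoconstrictor endothelin-1, and its nearest HIF2α peak was 1761 kb away in shCNT and 249 kb away under shBMAL1, the latter with pileup 3. LOX encodes lysyl oxidase, which cross-links collagen and elastin, and its nearest HIF2α peaks were 117 kb away at SRFBP1 in shCNT and 2678 kb away under shBMAL1. Both genes hold hypoxia elements near their starts. EDN1 had 4 and LOX 9 within 1 kb of the start, against 8 in VEGFA, 7 in ADM, 5 in ANGPTL4, 7 in PDGFB and 4 in TGFA. These counts take the 2 strands of an E-box as 2 elements. Such pairs stood at 354 and 355 bp in LOX and at −565 and −566 bp in ANGPTL4, so the counts do not rank LOX above VEGFA. An element without a peak says nothing of whether the gene was expressed or bound below the depth of these lists.

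Over the whole genes and their flanks, few of the elements lay inside a called peak. PDGFB had 148 copies of ACGTG or GCGTG (3.56 per kb), 2 of them inside a HIF2α peak. ADM had 39 (1.75 per kb) with 14 inside a HIF2α peak, VEGFA 56 with 8, ANGPTL4 63 with 4 and TGFA 126 with 2. EDN1 had 23 (0.857 per kb) and LOX 24 (0.681 per kb), the lowest densities of the 7. Their stretches were also the lowest of the 7 in G and C bases, 41.6% and 37.7%, against 55.3% for PDGFB. Densities were not adjusted for this. An E-box counts as 2 copies, and the PDGFB stretch held 20 E-boxes. In RefSeq promoters, 250 bases before to 50 after a start in GRCh38, 48.4% of 35116 held an element. Of the 5 genes found in that table, LOX reached 4 in its richest promoter, a count met by 4.40% of all, EDN1 3 (10.1% held at least 3), and ADM, ANGPTL4 and TGFA 1 each.

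At the peaks themselves the element was common, as it was in the whole HIF2α lists. Within 200 bp centred on the summit, 5 of 8 shCNT HIF2α peaks of these genes held an element (62.5%, exact Clopper-Pearson 95% interval 24.5 to 91.5%), where 66.0% of that list did. Under shBMAL1 it was 8 of 10 (80.0%, interval 44.4 to 97.5%), against 59.3%. Windows 2 kb to either side of the summits held one in 25.6% and 24.9%. At or above percentile 90 the whole-list shares were 85.8% and 86.3%. Both intervals for these genes held the share of the list. In 100 bp around the summit, the shares of these genes were 25.0% and 20.0%, against 38.5% and 33.3% over the lists, so 3 of the 8 and 6 of the 10 windows held elements only outside their central 100 bp.

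By site, 9 of the 11 with HIF2α had an element within those 200 bp in at least 1 HIF2α list, 6 of them ACGTG. Of BMAL1 peaks, 2 of 2 in shCNT and 2 of 5 under shBMAL1 held an element, where 48.0% and 38.4% of the lists did. The E-box CACGTG was in no 200 bp window of any of the 25 peaks, while the E-box in the strong ADM HIF2α peak lay outside its window. The AP-1 motif TGAGTCA, which reads TGACTCA on the other strand and is a common feature of open enhancers, was in 4 of 8 shCNT and 5 of 10 shBMAL1 HIF2α windows, where 13.6% and 15.5% of the lists had it. Both motifs stood in 3 of 8 and 3 of 10, against 9.61% and 9.50%. The AP-1 matches fell at 5 sites, 2 at ADM, 2 at ANGPTL4 and 1 at TGFA, and because peaks of the hairpins overlap they are not separate observations. The AP-1 motif was not among the planned comparisons, and no interval was made for its shares.

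**Figure D3:**
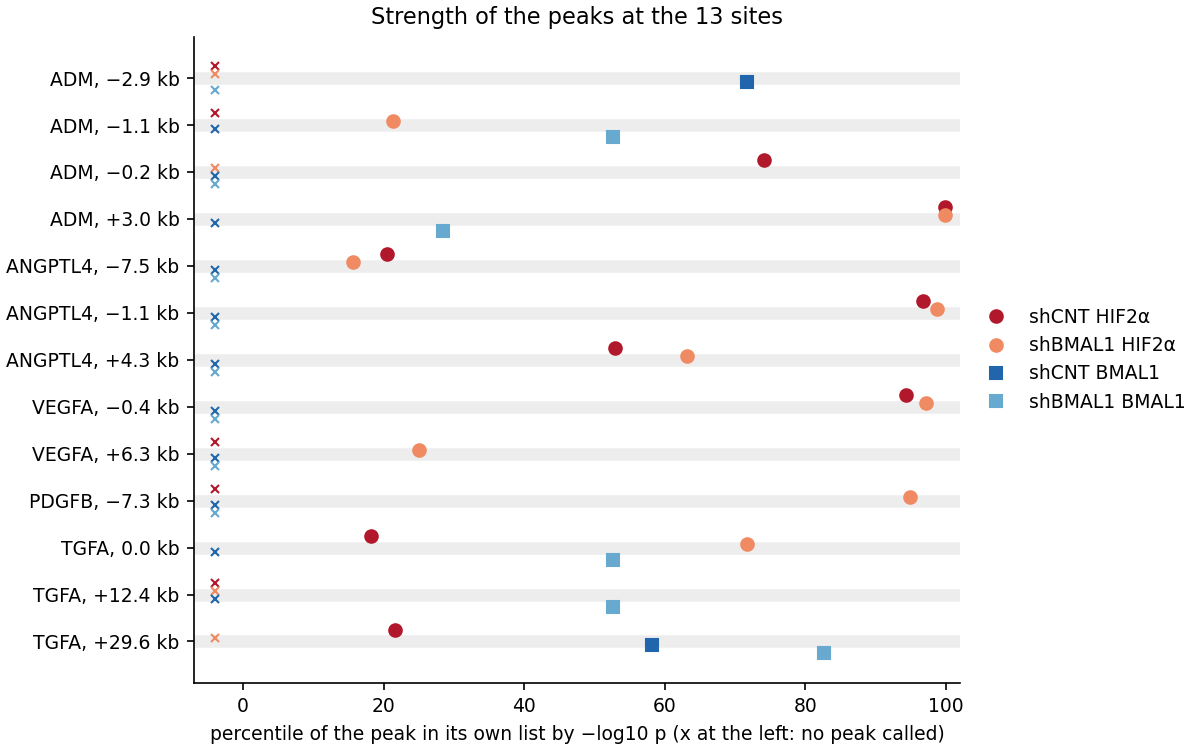
Percentile of each peak within its own list by −log10 p (horizontal, percent) at the 13 sites (vertical, named by gene and distance of the strongest summit from the gene start), with circles for HIF2α, squares for BMAL1, dark colours for shCNT and light colours for shBMAL1. A cross at the left marks a list without a peak, and where a list had more than 1 peak at a site the strongest is drawn. The strongest HIF2α peaks of ADM, ANGPTL4 and VEGFA are paired between hairpins, PDGFB is drawn for shBMAL1 alone, and the highest BMAL1 percentile is 82.6.

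Presence across the hairpins was compared next. Of the 11 HIF2α sites, 6 were called in both hairpins, 2 in shCNT only and 3 in shBMAL1 only. Counted as peaks, 6 of 8 shCNT HIF2α peaks were overlapped under shBMAL1 (75.0%, exact interval 34.9 to 96.8%), where 55.8% of the list was, and 7 of 10 in the other direction (70.0%, interval 34.8 to 93.3%), where 41.2% was. The 7 include both parts of the strong ADM site, which met the same shCNT peak. Exact intervals on peaks, here and elsewhere, take peaks of the same gene as independent, which they need not be. At or above percentile 90 the share of shCNT peaks kept was 97.4%, and the 3 shCNT peaks of these genes in that range, at ADM, ANGPTL4 and VEGFA, were all kept. Of BMAL1 peaks, 1 of 2 shCNT peaks was overlapped under shBMAL1 (47.1% of the list) and 1 of 5 shBMAL1 peaks in shCNT (26.1%).

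Overlap of HIF2α with BMAL1 was counted within each hairpin. Of shCNT HIF2α peaks, 1 of 8 was overlapped by a shCNT BMAL1 peak, the intronic TGFA peak, where 24.9% of the list was and 28.0% of its peaks at or above percentile 90. Under shBMAL1 it was 3 of 10, at 2 ADM sites and the TGFA start, against 28.4% and 34.5%. In the other direction, 1 of 2 shCNT BMAL1 peaks and 3 of 5 shBMAL1 BMAL1 peaks met a HIF2α peak of the same hairpin, where 25.0% and 21.2% of the lists did. Of the 11 HIF2α sites, 7 had no BMAL1 peak in any list, among them every site of VEGFA, ANGPTL4 and PDGFB. The strong ADM peak met BMAL1 under shBMAL1 alone. With so few peaks the intervals were wide, 0.316 to 52.7% for the 1 of 8. The single shCNT overlap was lost when peaks had to share 50% of the shorter one. With 50 kb to either side the shares rose to 38.5% in shCNT and 42.9% under shBMAL1. With the gene body and 1 kb upstream alone they were 14.3% and 42.9%. Whether the shares lay below or above those of the lists thus depended on the flank.

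The size of the HIF2α signal was compared at the 6 shCNT peaks kept under shBMAL1, with each pileup divided by the genome-wide background of its list. The shBMAL1 to shCNT ratio was 1.38 at ADM (exact conditional 95% interval 0.906 to 2.09), 1.64 at the VEGFA promoter (0.822 to 3.22), and 1.63 at the upstream ANGPTL4 peak (0.891 to 2.95). It was 1.64 at the intronic ANGPTL4 peak and 1.91 at both the far ANGPTL4 peak and the TGFA start. On this scale all 6 were above 1, none reached 2-fold and every interval held 1. Over the 1318 kept shCNT HIF2α peaks the median on the same scale was 1.53, with 21.7% at least 2-fold higher and 0.0759% at least 2-fold lower, so the 6, with a median of 1.64, lay with the rest.

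The direction of that ratio rested on the scale, so no rise or fall is read from it. The deposited fold adds 1 to pileup and to background. At genome-wide backgrounds of 0.209 (shCNT) and 0.109 (shBMAL1) it therefore corrects little for depth. With the deposited folds in place of scaled pileups the median over the 6 was 0.949, with 5 of them below 1, and the median over all kept peaks was 0.934, with 2.12% at least 2-fold higher and 4.02% at least 2-fold lower. With the median pileup of kept peaks as the scale the median over the 6 was 1.07, and 4.02% of all kept peaks were at least 2-fold higher and 2.66% lower. At the intronic TGFA site, the BMAL1 ratio was 2.33 (0.671 to 8.40), where kept BMAL1 peaks had a median of 2.00, with 40.5% at least 2-fold higher and 0.271% at least 2-fold lower. From the deposited folds the ratio there was 1.23, the median of kept BMAL1 peaks 1.08, and the shares 9.13% and 2.62%. Intervals cover counting error only.

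**Figure D4:**
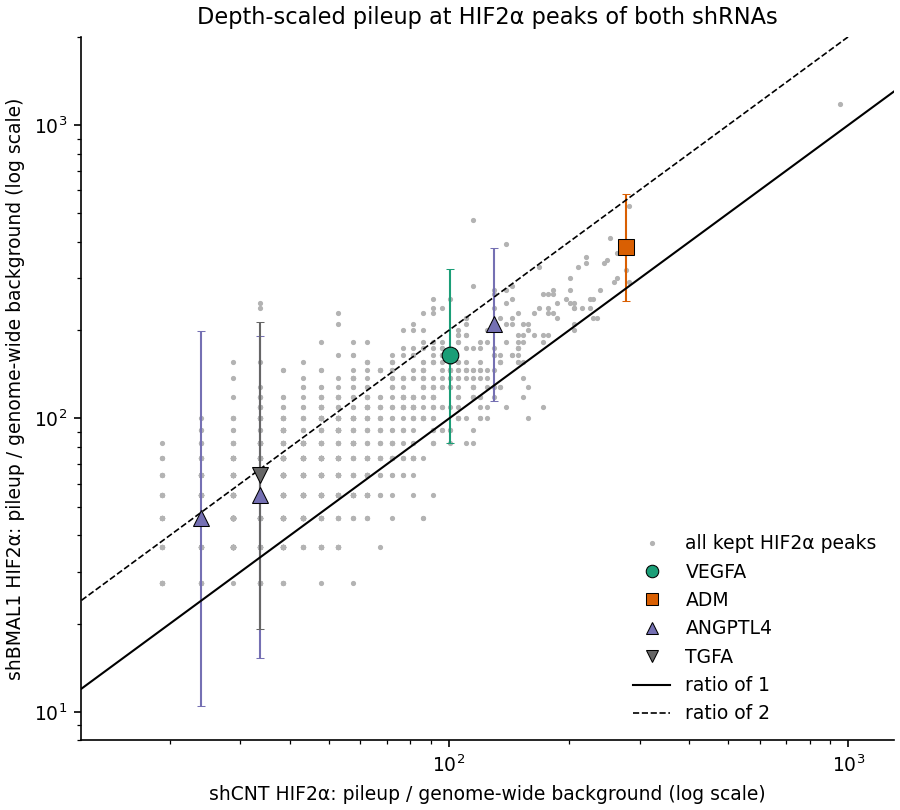
Pileup divided by the genome-wide background of the list, in shCNT HIF2α (horizontal, log scale) and shBMAL1 HIF2α (vertical, log scale), for the 1318 kept HIF2α peaks in grey and the 6 at these genes as symbols. Vertical bars are exact conditional 95% intervals of the ratio covering counting error, the solid line is a ratio of 1 and the dashed line a ratio of 2. On this scale the 6 symbols lie between the lines, from 1.38 at ADM to 1.91 at ANGPTL4 and TGFA, within the grey cloud.

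Other genes of the same pathways were read from a list of 37, made of 20 ligands, 13 receptors and 4 lysyl oxidase relatives of LOX. HIF2α was called within 10 kb of 8 in shCNT and 10 under shBMAL1, 7 in both, and BMAL1 at 6 and 10. Over all 20098 protein-coding genes the shares were 11.4% and 13.6% for HIF2α and 12.9% and 18.6% for BMAL1, shCNT first. No peak in any list was found for 23, among them FLT1 and KDR, the VEGF receptors of endothelium, PDGFRB, the receptor of PDGFB, and EDNRA and EDNRB, the receptors of endothelin. These receptors are named after their values were seen, and the share of all genes without any peak was not computed. By class, HIF2α was called at 4 and 4 of 20 ligands, 2 and 4 of 13 receptors and 2 and 2 of 4 lysyl oxidase relatives, shCNT first.

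The strongest HIF2α peak of that list was in EGFR, the receptor of TGFA, in shCNT cells and in LOXL2 under shBMAL1. The EGFR peak 111 kb into the gene ranked 26 in shCNT (fold 32.2, pileup 39) and 51 under shBMAL1 (fold 21.0, pileup 24). LOXL2, which cross-links collagen as LOX does, had a HIF2α peak in an intron 79.8 kb from its start, with rank 100 in shCNT and rank 17 under shBMAL1. STC1, the secreted hormone stanniocalcin, had a HIF2α peak in the gene near its start at percentiles 77.8 and 95.6. PDGFC, a further PDGF ligand, had intronic HIF2α peaks that reached percentiles 80.4 and 89.2.

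The rest were weaker. The peak within 10 kb of LOXL3 lay in HTRA2 and reached percentiles 62.7 and 80.4. NRP2, a VEGF co-receptor, reached 37.4 and 48.0. NRP1, its relative, and TEK, the angiopoietin receptor, had HIF2α under shBMAL1 alone, at 63.1 and 72.5. PDGFA, chosen after its values were seen, was the single gene with HIF2α in shCNT alone (percentile 37.8, pileup 6), and EDN2, also chosen so, was the third with it under shBMAL1 alone (percentile 16.8, pileup 4). VEGFB, also chosen so, had HIF2α in both lists but in different peaks. Its best were at 6420 bp in shCNT (percentile 23.4) and −4100 bp under shBMAL1 (percentile 25.0).

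Likeness to ADM, the gene with the highest-ranked shCNT HIF2α peak, was measured over the 4 lists as the summed difference of best-peak percentiles. ADM had best percentiles of 99.9 (shCNT) and 99.8 (shBMAL1) for HIF2α and of 71.7 and 52.6 for BMAL1. The closest protein-coding genes were RIN2 (summed difference 10.6), CRAMP1 (14.2) and JPT2 (16.5, shared with a gene of the same locus, ENSG00000261732). At the other 6 members the distance from ADM was 129 for ANGPTL4, 133 for VEGFA, 150 for TGFA, 229 for PDGFB and 324 for EDN1 and LOX. Likeness over 4 values is a description, and 10.6 was the smallest distance among all genes more than 100 kb from a member.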

How the data were processed

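CUT&RUN libraries were grouped by hairpin and antibody from their titles. Per the labels and the study's methods, the authors aligned reads to hg19 (GRCh37) with Bowtie2 2.5.3, removed duplicates (SAMtools 1.6), called peaks with MACS2 2.2.9.1 at p 1e-05 joining stretches up to 400 bp apart, and took out blacklisted regions (bedtools 2.31.1). Whether replicates were pooled and which control was used is not stated, and files of 16 libraries were not analysed here. The deposited fold is a linear ratio of summit pileup to local background, and the deposited p-value and q-value are written as −log10. They only rank and describe peaks, and the deposited score, a whole-number display value from the authors' peak caller, was not used.

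Whole-number pileups were recovered from (pileup + 1) / (background + 1) and the Poisson tail, for 100% of peaks in every list (relative tolerance 3e-05). This step, the overlaps and the motif search were tested on simulated data. Gene bodies came from GENCODE mapped to GRCh37. Peaks were shared at an overlap of 1 bp or more. ACGTG and GCGTG were searched on both strands, so an E-box counts as 2 elements. A pileup ratio was called past 2-fold. Python 3.11.15, numpy 2.4.6, pandas 2.3.3, scipy 1.17.1, pysam 0.24.0 and matplotlib 3.10.9 were used.

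Members and lists were chosen with earlier results of these data known. Named were all 7 members, other coding genes within 10 kb of their peaks, at most 8 listed genes with the highest HIF2α −log10 p, and the 3 genes most like the member with the top shCNT HIF2α peak. VEGFA and PDGFB were not in the promoter table. Tried as alternatives were a minimum −log10 p of 8, flanks of 50 kb or none, sharing 50% of the shorter peak or a summit distance of 200 bp, other windows and motifs, and other scales. The other scales over all kept peaks and for BMAL1 were chosen after seeing the data.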

Additional observations from a re-analysis of the deposited data

How the results depend on the processing

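Of 58 values recomputed under an alternative, 45 stayed within their error or within 1.5 times the count, 12 moved and 1 turned around. For shares that error was the exact interval on 8 or 10 peaks, so wide that few changes could leave it. The share of shCNT HIF2α peaks with an element counted as unmoved although it fell from 62.5% to 25.0% in 100 bp windows. For median percentiles the error was a binomial interval on the whole list, not a spread between genes. The 45 are therefore no measure of stability. The one that turned was the shBMAL1 to shCNT HIF2α ratio at kept peaks, a median of 0.949 from the deposited folds, and it was 1.07 with the median pileup of kept peaks as the scale. Over all kept HIF2α peaks, recomputed after seeing the data, the median of 1.53 likewise turned, to 0.934 from the deposited folds. With 50 kb to either side, peaks rose to 13 in shCNT HIF2α, 6 in shCNT BMAL1 and 10 in shBMAL1 BMAL1, and 4 members had a shBMAL1 BMAL1 peak. With the gene body and 1 kb upstream alone, 1 member and 1 peak remained in shCNT BMAL1. With a −log10 p of at least 8, 5 shCNT HIF2α peaks were left, 0.0% of them met BMAL1, and the median best percentile under shBMAL1 was 94.7. An overlap of 50% of the shorter peak also gave 0.0%, whereas 50 kb to either side gave 38.5%. In 100 bp windows 20.0% of shBMAL1 HIF2α peaks held a hypoxia element. The causes were not tested.

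No paired analysis was possible because each group has 1 list and no value per replicate, and for the same reason no replicate was left out in turn. Depth limits the weak sites, whose pileups of 4 to 7 were near the smallest callable, and an absent peak there does not show absent binding.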
